A study of Mus musculus with 6 samples.

Results

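The genes described here are the Wnt ligands, their receptors, the secreted inhibitors and the effectors inside the cell. They were chosen by symbol: every *Wnt*, *Fzd*, *Sfrp* and *Dkk* gene, the co-receptors *Lrp5* and *Lrp6*, the R-spondins *Rspo1*, *Rspo2* and *Rspo3*, the inhibitors *Wif1* and *Frzb*, and *Axin1*, *Axin2*, *Apc*, *Ctnnb1*, *Lef1*, *Tcf7*, *Tcf7l1* and *Tcf7l2*. All 52 of them had a probe, out of 22911 genes named on the array. RNA was compared between 3 WT samples and 3 IG27 samples of OS3, a glial cell line from newborn C3H/HeN mice that was immortalized with SV40. WT cells carried the empty vector. IG27 cells were transfected with a plasmid for H3.3K27M, the histone H3.3 variant found in diffuse midline gliomas, in which methionine replaces a lysine whose methylation marks silenced genes. Both were kept for 2 days in MEM-α with serum, insulin, added glucose and antibiotics. The transfected cells were selected with a drug and grown as clones, and how many clones stand behind the IG27 samples is not given in the sources used here. Each group was harvested from 3 dishes, and the p-values measure the spread between these dishes, which may be technical. Whether they go back to separate transfections is not given in the sources used here. A difference between IG27 and WT cells is therefore one between the lines as they were grown, and the effects of the histone, of selection and of clonal origin cannot be told apart.

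Wnt proteins are secreted, lipid-modified signals that bind Frizzled receptors. With the co-receptors LRP5 and LRP6, the canonical branch halts the destruction complex of Axin, APC and kinases, so that β-catenin (*Ctnnb1*) accumulates and joins TCF/LEF factors at target genes. Other branches act without β-catenin and set cell polarity and movement, and *Wnt5a* is their best known ligand. In the brain, Wnt signals pattern the neural tube, restrain the maturation of oligodendrocytes and, through *Wnt7a* and *Wnt7b*, build the blood-brain barrier.

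Each sample was measured on 1 single-color Agilent array, and the unit is the log2 of the processed signal minus the 75th percentile of that array. A value of 0 is therefore the brightness of the probe at this percentile, and levels of different genes are not compared, since each probe has its own response. On the 5 arrays with complete scanner output, 58.8% to 61.2% of 56605 probes were well above background, no spot was saturated, and the lowest value among such probes lay between -6.01 and -5.33. IG27 replicate 2 has no background flags, because its scanner output is incomplete and its values came from the table of processed signals. Arrays of a group correlated at r = 0.994 to 0.997 and arrays of different groups at 0.902 to 0.905. The number of arrays limits the precision. *H3f3a*, the gene of the expressed histone, fell by 0.26 on the log2 scale in IG27 cells (standard error, SE, 0.08, limma adjusted p = 0.0237), and whether its probes read the plasmid is not given in the sources used here. The glial label was checked against markers: all 9 astrocyte and radial glia markers were bright enough to test, 3 with higher and 4 with lower levels in IG27 cells, which run in both directions. *Gfap*, *Slc1a2*, *Aldh1l1* and *Nes* fell by 1.07, 1.03, 1.72 and 0.49 on the log2 scale, whereas *S100b* rose by 4.93 and *Slc1a3* and *Fabp7*, not above background in WT cells, were at least 20.6-fold and 110-fold higher. All 9 oligodendrocyte lineage markers were tested too, 4 higher and 3 lower. Of 6 neuron markers 4 were tested, 1 higher and 2 lower, and of 7 microglia markers 5, 3 higher and 2 lower. By the same test 30.5% of all genes tested were higher and 40.0% lower, so these counts say little about a cell type. Of 6 endothelial markers, the defining genes *Cdh5*, *Cldn5* and *Tek* were not above background on any complete array, *Pecam1* fell by 0.27 on the log2 scale (adjusted p = 0.0253 by limma), and *Kdr* and *Flt1*, not above background in WT cells, were at least 135-fold and 39.6-fold higher in IG27 cells. The summed linear level of the endothelial list was 0.183 to 0.205 in WT samples and 3.35 to 3.36 in IG27 samples, and that of the 7 fibroblast and mural markers 149 to 152 and 80.0 to 85.2. Such a sum is set mostly by the brightest probes. Of the 7, 4 were tested, and *Col1a1*, *Pdgfrb* and *Acta2* fell by 0.92, 1.16 and 0.51 on the log2 scale. *Dcn*, not above background in WT cells, was at least 3.32-fold higher in IG27 cells. The part of all these markers in the results below was not tested. In bulk RNA, fewer cells of a kind and less RNA per cell cannot be told apart.

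Of the 52 genes, 31 were bright enough to test, which means that a probe was flagged as above background on all complete arrays of WT cells, of IG27 cells or of both. In IG27 cells 8 of the 31 were higher and 15 lower by limma (two-sided) when Benjamini-Hochberg adjusted p-values under 0.05, over all genes tested, were called. Among all 14897 genes tested, 70.5% were called, 30.5% as higher and 40.0% as lower, so 23 of 31 is a share near the background and is not a result about the Wnt genes as a group. With a block for slide row, 8 were higher and 14 lower. At least a 2-fold change was called for 15 of them, 5 higher and 10 lower, against 23.1% of all genes in either direction, 11.5% higher and 11.7% lower. The filter favors a difference in a gene that passed through 1 group only, which was so for *Wnt10b*, *Frzb* and *Dkk3*, all through WT cells. *Dkk3* was not called, and the calls of *Wnt10b* and *Frzb* support nothing about the group. Of the 28 genes that passed in both groups, 8 were higher and 13 lower, with 5 and 8 at least 2-fold. The share over all genes that passed in both groups was not counted, so these counts have no matched background. Where a gene was not above background in 1 group, its fold is given as a lower bound, which holds for the processing used here and not for normexp background correction (offset 50), under which the fitted folds of *Wnt10b* and *Frzb*, and of *Lgr5*, *Prickle2*, *Twist1*, *Jag1* and *Cdx1* below, are smaller than their bounds. The values of the groups did not overlap for 23 genes, against 75.7% of all genes. The median change was -0.09 on the log2 scale, close to -0.07 over all genes tested.

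**Figure D1:**
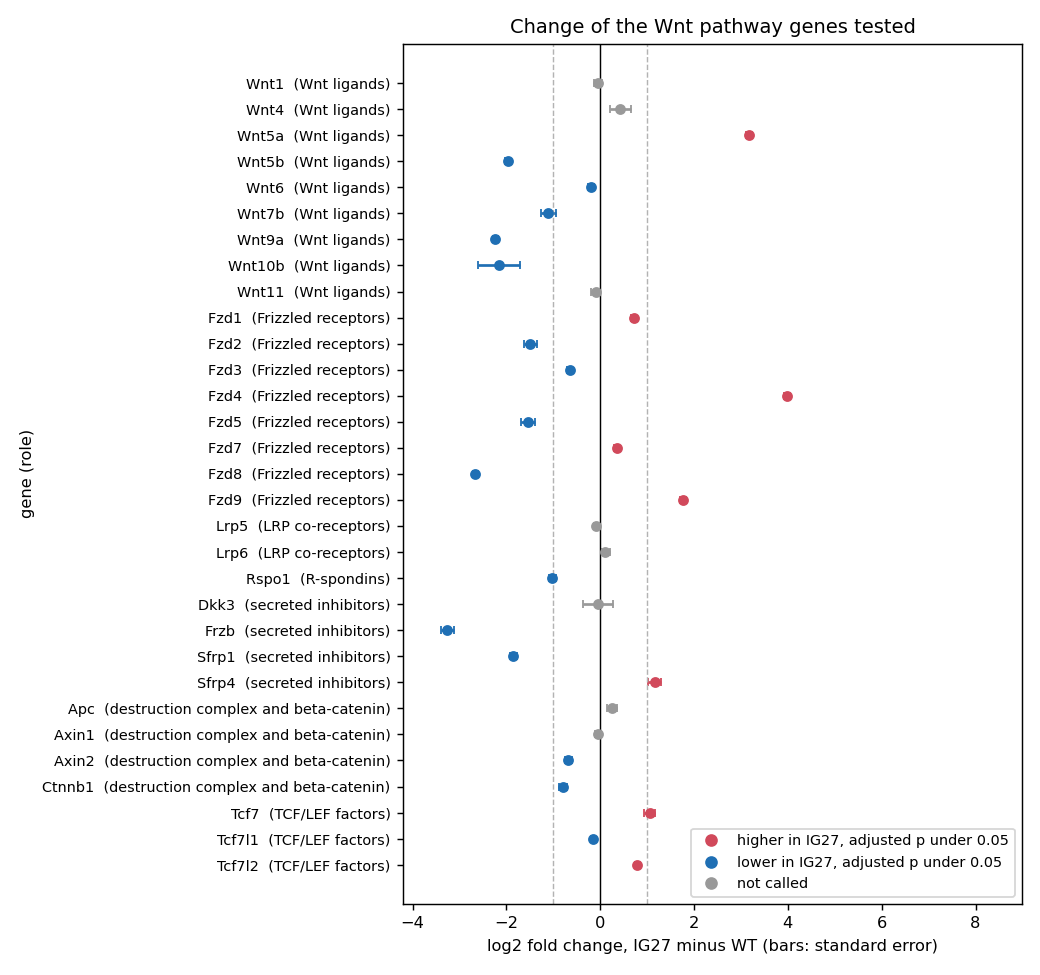
Change of each of the 31 tested Wnt genes, with the log2 change (IG27 minus WT) on the horizontal axis and the genes, ordered by role, on the vertical axis. Points are limma estimates from 3 arrays a group, bars are standard errors and dashed lines mark 2-fold. *Fzd4* at 3.99 and *Wnt5a* at 3.17 lie farthest to the right and *Fzd8* at -2.66 is low among the genes above background in both groups, while *Frzb* at -3.26 and *Wnt10b* at -2.17 are fits to IG27 values below background (at least 2.22-fold and 2.05-fold lower).

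The windows around the start sites of 4 of these genes show the kind of promoter involved. *Wnt9a* is a ligand that fell, *Fzd4* a receptor that rose, *Frzb* an inhibitor that was lower, and *Axin2* is a feedback target of the pathway. They are RefSeq sequences of the GRCm38.p6 assembly, 300 bases each, from 250 bases before the start, printed 5′ to 3′ on the gene's strand with every CpG in capitals. *Wnt9a* is at chr11:59306680-59306979 on the plus strand, *Fzd4* at chr7:89404116-89404415 on the plus strand, *Frzb* at chr2:80447347-80447646 on the minus strand and *Axin2* at chr11:108920099-108920398 on the plus strand.
Wnt9a: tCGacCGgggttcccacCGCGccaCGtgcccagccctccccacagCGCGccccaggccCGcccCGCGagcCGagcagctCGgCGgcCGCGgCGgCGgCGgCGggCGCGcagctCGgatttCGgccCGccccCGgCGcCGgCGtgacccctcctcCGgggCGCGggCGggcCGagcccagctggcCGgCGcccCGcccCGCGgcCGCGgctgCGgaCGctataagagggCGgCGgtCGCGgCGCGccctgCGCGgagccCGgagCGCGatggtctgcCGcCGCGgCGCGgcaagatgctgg
Fzd4: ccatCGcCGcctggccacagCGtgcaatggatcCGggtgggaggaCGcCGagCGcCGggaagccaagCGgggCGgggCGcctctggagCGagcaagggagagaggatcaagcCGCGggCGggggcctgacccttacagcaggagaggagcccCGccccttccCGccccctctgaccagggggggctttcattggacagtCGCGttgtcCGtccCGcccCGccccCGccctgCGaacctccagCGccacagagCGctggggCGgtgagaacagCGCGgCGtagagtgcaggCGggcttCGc
Frzb: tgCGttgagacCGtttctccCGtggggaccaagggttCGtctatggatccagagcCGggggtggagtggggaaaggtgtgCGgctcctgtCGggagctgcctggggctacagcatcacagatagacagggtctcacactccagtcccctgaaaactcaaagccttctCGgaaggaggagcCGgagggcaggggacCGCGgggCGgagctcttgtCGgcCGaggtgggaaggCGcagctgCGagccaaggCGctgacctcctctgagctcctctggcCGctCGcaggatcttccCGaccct
Axin2: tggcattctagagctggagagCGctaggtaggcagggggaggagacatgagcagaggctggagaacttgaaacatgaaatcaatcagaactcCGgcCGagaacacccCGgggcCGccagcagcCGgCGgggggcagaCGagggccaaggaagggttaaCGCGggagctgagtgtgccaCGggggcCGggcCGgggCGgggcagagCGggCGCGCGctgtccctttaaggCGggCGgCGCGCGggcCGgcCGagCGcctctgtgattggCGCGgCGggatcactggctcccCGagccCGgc
The *Wnt9a* window held 58 CpG, the *Axin2* window 31, the *Fzd4* window 32 and the *Frzb* window 20. RefSeq windows were at hand for 34 of the 52 genes, 43 windows in all, and their median was 26 CpG (4 to 58), against 7 over 32851 mouse promoters. The windows of genes called higher had a median of 28 and those of genes called lower 31. The core of the TCF/LEF site, CTTTGA or on the other strand TCAAAG, was found in 6 of the 43 windows, which is 14.0%, against 16% of all promoters. In the *Frzb* window it starts at base 156, 95 bases before the start site. The other windows with a match belong to *Lef1*, *Fzd1*, *Wnt5b*, *Wnt11* and *Dkk1*. A match describes letters, not a bound site.

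Among the ligands, *Wnt5a* rose while *Wnt5b*, *Wnt7b*, *Wnt9a* and *Wnt10b* fell at least 2-fold and *Wnt6* fell slightly. *Wnt5a*, the ligand of the polarity branch, stood at -1.82, -1.78 and -1.91 in the WT samples and at 1.27, 1.27 and 1.45 in the IG27 samples (normalized log2 intensity, replicates 1, 2 and 3 in this order, as for all genes below). All IG27 values were above all WT values, by a log2 change of 3.17 (SE 0.07, limma adjusted p = 3.20e-07) or 8.98-fold. Its dimmer probe gave 2.87 from a WT mean of -6.57, which is below the dimmest probes above background.

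*Wnt5b*, the closest relative of *Wnt5a*, went the opposite way. It stood at -0.29, -0.31 and -0.23 in the WT samples and at -2.19, -2.30 and -2.26 in the IG27 samples. The groups did not overlap, with a log2 change of -1.97 (SE 0.05, limma adjusted p = 6.67e-07), and the other probe gave -1.63.

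*Wnt9a*, a ligand known from joint and blood cell development, fell by more than 4-fold. Its WT values were 0.64, 0.62 and 0.55 and its IG27 values -1.56, -1.70 and -1.65. With no overlap between the groups, the log2 change was -2.24 (SE 0.06, limma adjusted p = 5.74e-07), which is 4.72-fold. Its neighbor on chromosome 11, *Wnt3a*, a canonical ligand, was not above background on any complete array.

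*Wnt7b*, a canonical ligand of the developing brain and its vessels, had values of -1.42, -1.36 and -1.79 in WT cells and of -2.41, -2.62 and -2.88 in IG27 cells. The groups stayed apart, with a log2 change of -1.11 (SE 0.16, limma adjusted p = 0.00103). The size depends on the probe, since the other one gave only -0.36 and the mean of both -0.74.

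*Wnt10b*, a canonical ligand best known for holding back fat cell formation, was dim throughout, at -4.33, -4.33 and -4.27 in WT cells and at -5.82, -6.05 and -7.56 in IG27 cells. It was not well above background on either complete IG27 array, so its level there is only a bound and it was at least 2.05-fold lower. The fitted log2 change was -2.17, given without a test because the gene passed the filter through WT cells alone. Its neighbor on chromosome 15, *Wnt1*, the classical canonical ligand of the midbrain, had a log2 change of -0.05 (adjusted p = 0.634).

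*Wnt6* changed least of the called ligands, by -0.19 on the log2 scale (adjusted p = 0.0464 by limma), and the call was lost without any of the arrays other than WT replicate 2, with adjusted p of 0.0668 to 0.121. *Wnt1*, *Wnt4* and *Wnt11* did not pass the test, and their WT and IG27 values overlapped. For *Wnt4*, a ligand with roles in kidney and gonad, the log2 change was 0.43 with a standard error of 0.22. *Wnt11*, like *Wnt5a* a ligand of the polarity branch, gave -0.09, but was called with quantile normalization (-0.35, adjusted p = 0.00960) and with the block for slide row (-0.27, adjusted p = 0.0482).

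**Figure D2:**
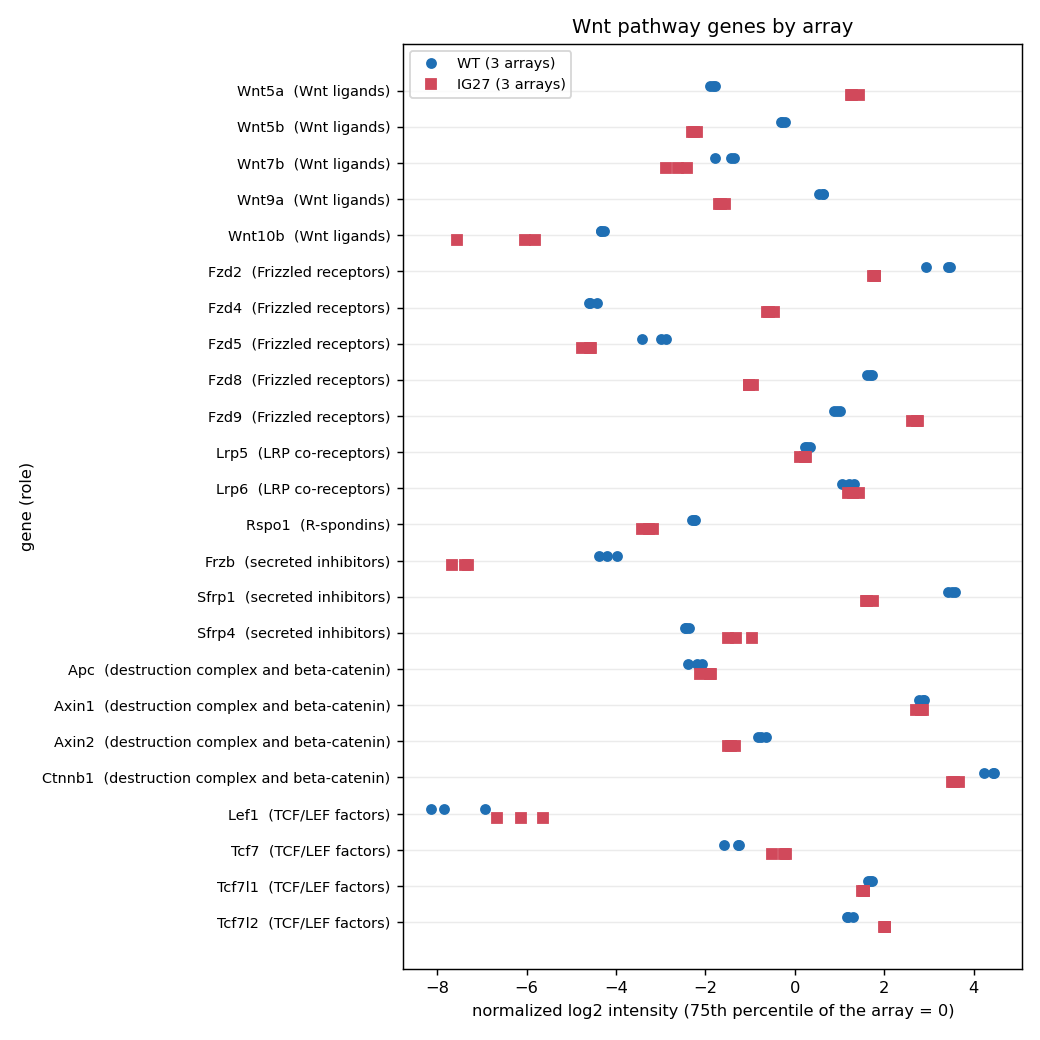
Normalized log2 intensity (horizontal axis) of the 24 Wnt genes described by sample (vertical axis, with role), with 1 blue circle per WT array and 1 red square per IG27 array. For *Fzd4* the IG27 samples sit between -0.61 and -0.47 and the WT samples between -4.60 and -4.43, and for *Fzd8* the order is turned.

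All 8 Frizzled receptors that could be tested were called, 4 higher and 4 lower, where 70.5% of all genes were called, so the count says little about the family. *Fzd4*, *Fzd9*, *Fzd1* and *Fzd7* rose, and *Fzd8*, *Fzd5*, *Fzd2* and *Fzd3* fell. *Fzd6* and *Fzd10* were not above background on any complete array.

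*Fzd4* rose most among the receptors, and it is the receptor for Wnts and for norrin in retinal and brain vessels. The WT samples gave -4.59, -4.60 and -4.43 and the IG27 samples -0.47, -0.57 and -0.61. The flags put it above background on all 5 complete arrays, with a log2 change of 3.99 (SE 0.07, limma adjusted p = 1.49e-07) or 15.8-fold. With normexp the log2 change was smaller, 2.87. Of the endothelial markers in the same samples, *Kdr* and *Flt1* were higher, *Pecam1* lower and the other 3 not above background, and their part in this was not tested.

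*Fzd9*, a receptor with roles in the hippocampus and in bone, stood at 1.002, 0.877 and 0.938 in WT cells and at 2.747, 2.633 and 2.731 in IG27 cells. Its log2 change was 1.76 (SE 0.06, limma adjusted p = 1.52e-06). *Fzd1* and *Fzd7*, which are close relatives of *Fzd2*, rose by less than 2-fold, with log2 changes of 0.71 (adjusted p = 4.87e-05) and 0.35 (adjusted p = 8.15e-04).

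*Fzd8*, a receptor of canonical signals in the forebrain, fell most among the receptors. Its values were 1.69, 1.73 and 1.61 in WT samples and -1.02, -0.93 and -1.02 in IG27 samples. No IG27 sample came near the WT samples, and the log2 change was -2.66 (SE 0.06, limma adjusted p = 2.83e-07) or 6.34-fold.

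*Fzd2*, a receptor used in both branches, was at 2.93, 3.42 and 3.46 in WT cells and at 1.80, 1.76 and 1.79 in IG27 cells. WT replicate 1 lay below the other WT samples but above all IG27 samples. Its log2 change was -1.49 (SE 0.14, limma adjusted p = 1.61e-04).

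*Fzd5*, a receptor needed in the eye and yolk sac, had WT values of -3.42, -3.00 and -2.88 and IG27 values of -4.59, -4.55 and -4.77. The log2 change of this brighter probe was -1.54 (SE 0.15, limma adjusted p = 1.63e-04). The other probe gave 0.14 and did not pass the test (adjusted p = 0.253 over probes), so the direction of *Fzd5* rests on 1 probe. *Fzd3*, a receptor for axon guidance, fell by 0.65 on the log2 scale (adjusted p = 9.97e-05).

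The co-receptors did not pass the test. *Lrp5* gave 0.24, 0.33 and 0.27 in WT cells and 0.26, 0.23 and 0.11 in IG27 cells, with a log2 change of -0.08 (SE 0.06, limma adjusted p = 0.274). *Lrp6* gave 1.31, 1.05 and 1.22 in WT cells and 1.44, 1.18 and 1.30 in IG27 cells. Its log2 change was 0.11 (SE 0.10, limma adjusted p = 0.338), while its dimmer probe gave 0.42 (adjusted p = 0.0173 over probes) and the mean of both 0.27 (adjusted p = 0.00613).

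R-spondins enhance Wnt signals by keeping receptors at the surface. Only *Rspo1* was bright enough to test. It fell from -2.23, -2.30 and -2.26 in the WT samples to -3.26, -3.18 and -3.42 in the IG27 samples, a log2 change of -1.03 (SE 0.07, limma adjusted p = 4.01e-05). *Rspo2* and *Rspo3* were not above background on any complete array.

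Of the 10 secreted inhibitors, *Frzb*, *Sfrp1*, *Sfrp4* and *Dkk3* could be tested. *Frzb*, also called *Sfrp3*, binds Wnts outside the cell. It was at -3.99, -4.39 and -4.21 in WT cells and at -7.37, -7.67 and -7.33 in IG27 cells, where it was not well above background on either complete array. It was therefore at least 2.22-fold lower, and having passed the filter through WT cells alone it is given without a test. The fitted log2 change was -3.26, with -3.32 from its other probe, both from IG27 values below background.

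*Sfrp1*, which binds both Wnts and Frizzled receptors, is one of the best studied of these inhibitors in the nervous system. Its values were 3.51, 3.43 and 3.58 in WT samples and 1.60, 1.76 and 1.61 in IG27 samples. No values overlapped, with a log2 change of -1.85 (SE 0.07, limma adjusted p = 2.48e-06). The 769 genes tested on chromosome 8, where it lies, had a median of -0.67, and *Sfrp1* was 1.18 below that.

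*Sfrp4*, a family member known from bone and phosphate balance, rose instead. The WT samples stood at -2.43, -2.45 and -2.38 and the IG27 samples at -1.49, -1.32 and -0.96. The IG27 values spread more than the WT values and did not overlap them, with a log2 change of 1.16 (SE 0.14, limma adjusted p = 3.72e-04). *Dkk3*, an unusual Dickkopf that does not act like the other family members on LRP6, had a log2 change of -0.05 with a standard error of 0.31. It was above background on only 1 of the 2 complete IG27 arrays.

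Of the destruction complex and its substrate, *Ctnnb1* and *Axin2* fell and *Apc* and *Axin1* did not pass the test. *Ctnnb1* (β-catenin) was at 4.44, 4.24 and 4.46 in WT cells and at 3.52, 3.68 and 3.56 in IG27 cells. This is a log2 change of -0.80 (SE 0.08, limma adjusted p = 1.98e-04), and the other probe gave -0.74. The median of the 813 genes tested on chromosome 9, where it lies, was -0.64, so that *Ctnnb1* lay 0.16 below it.

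*Axin2*, the scaffold that is itself a widely used target gene of β-catenin, had WT values of -0.64, -0.83 and -0.76 and IG27 values of -1.43, -1.34 and -1.50. Here the log2 change was -0.68 (SE 0.07, limma adjusted p = 2.38e-04), with -1.11 from the dimmer probe. *Axin1*, the constitutive scaffold, gave 2.78, 2.88 and 2.90 in WT cells and 2.87, 2.82 and 2.71 in IG27 cells, a log2 change of -0.05 (SE 0.06, limma adjusted p = 0.490). *Apc*, the tumor suppressor of the complex, gave -2.09, -2.20 and -2.39 in WT cells and -1.88, -1.91 and -2.12 in IG27 cells. Its groups overlapped slightly, with a log2 change of 0.26 (SE 0.10, limma adjusted p = 0.0641), and it was called without WT replicate 1 (adjusted p = 0.0375) or without IG27 replicate 3 (adjusted p = 0.0402).

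The TCF/LEF factors bind DNA and take up β-catenin. *Tcf7*, the gene of TCF1, rose from -1.28, -1.26 and -1.58 in WT samples to -0.52, -0.25 and -0.19 in IG27 samples. The log2 change was 1.05 (SE 0.13, limma adjusted p = 4.14e-04), with 1.46 from its other probe. *Tcf7l2*, the gene of TCF4 and a regulator of oligodendrocyte maturation, stood at 1.20, 1.16 and 1.31 in WT cells and at 2.00, 2.02 and 2.02 in IG27 cells.

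The log2 change of *Tcf7l2* was 0.79 (SE 0.06, limma adjusted p = 3.82e-05), and its other 3 probes, all dimmer, rose by 0.80 or more. *Tcf7l1*, which mostly represses, was at 1.73, 1.65 and 1.68 in WT cells and at 1.50, 1.54 and 1.55 in IG27 cells. This fall was small, with a log2 change of -0.15 (SE 0.05, limma adjusted p = 0.0266), and was not called without any array other than WT replicate 2, with adjusted p of 0.0518 to 0.0876. Against the median of its chromosome it was 0.06 higher. *Lef1* was not above background on any complete array, at -7.85, -6.94 and -8.14 in WT samples and at -6.66, -5.64 and -6.12 in IG27 samples.

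Several chromosomes had medians away from 0, from -0.67 on chromosome 8 to 0.33 on chromosome 4 among the autosomes. After subtraction of the median of its chromosome from the fitted change, 22 of the 23 called Wnt genes kept their sign, with *Tcf7l1* the exception. All 15 genes with at least a 2-fold fitted change still had one in the same direction. For *Frzb* and *Wnt10b* among them the fit rests on IG27 values below background. Their smaller bounds were not set against the chromosome median, so the count does not hold for these genes beyond the fit.

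The 21 genes that were not tested ranged from -8.32 to -3.86 over all arrays. They are *Wnt2*, *Wnt2b*, *Wnt3*, *Wnt3a*, *Wnt7a*, *Wnt8a*, *Wnt8b*, *Wnt9b*, *Wnt10a*, *Wnt16*, *Fzd6*, *Fzd10*, *Rspo2*, *Rspo3*, *Dkk1*, *Dkk2*, *Dkk4*, *Sfrp2*, *Sfrp5*, *Wif1* and *Lef1*. A value above background was seen on a single complete array for each of *Wnt7a*, *Wnt8a* and *Sfrp5* and for none of the others. *Wnt7a*, the other Wnt of brain vessels, was at -8.06, -6.94 and -7.40 in WT samples and at -5.19, -4.98 and -5.40 in IG27 samples. Its groups did not overlap, but only 1 of the 2 complete IG27 arrays was above background. *Wnt8a*, a ligand of the early embryo, had -3.86 on IG27 replicate 1 and -7.94 to -7.21 on the others. Where no filter was set, *Wnt7a*, *Wnt10a* and *Lef1* would be called higher, with log2 changes of 2.28, 1.31 and 1.50, and *Dkk1*, the classical LRP6 inhibitor, lower with -0.43.

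**Figure D3:**
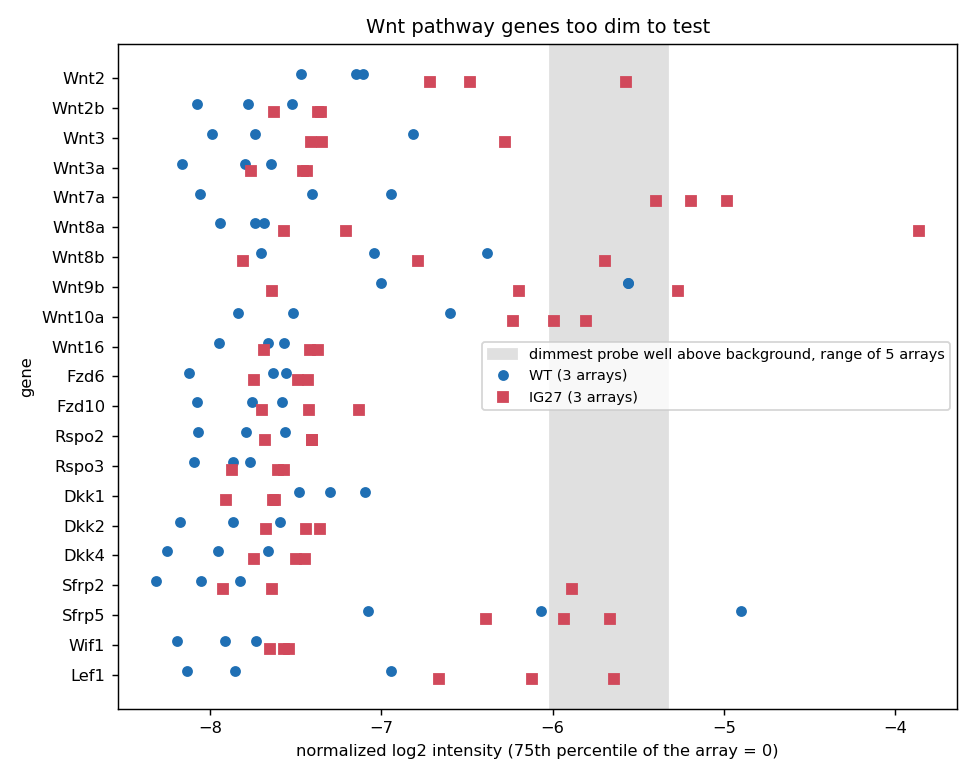
Normalized log2 intensity (horizontal axis) of the 21 Wnt genes that were not tested (vertical axis), with 1 point per array and a gray band for the dimmest probe well above background, -6.01 to -5.33 over 5 arrays. *Wnt7a* and *Lef1* are examples with higher IG27 values in a range where nearly all arrays are not above background.

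The rest of the pathway was described with a list of 71 other genes, of which 61 could be tested. In IG27 cells 19 were higher and 30 lower, with a median log2 change of -0.18 against -0.07 over all genes. Over all genes 70.5% were called, 30.5% higher and 40.0% lower. At least a 2-fold change was called for 4 that rose and 12 that fell, against 11.5% and 11.7% of all genes. *Lgr5*, *Kremen2* and *Prickle2* passed the filter through 1 group only, and without them 2 rose and 12 fell at least 2-fold. For the counts without them no matched share over all genes was counted.

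Of the genes for Wnt secretion and receptor turnover, 7 of 10 were tested, with 4 higher and 1 lower. Over all genes tested, 30.5% were called higher and 40.0% lower. *Lgr5*, the R-spondin receptor and stem cell marker, was not above background in WT cells (mean -7.85 ± 0.21, SD, n = 3) but was above it in IG27 cells (-0.22 ± 0.09, SD, n = 3), at least 47.0-fold higher, and having passed the filter through IG27 cells alone it is given without a test. *Notum*, an enzyme that strips the lipid from Wnts, fell by 1.07 on the log2 scale (adjusted p = 3.84e-05). Of 14 other receptors and surface proteins, 9 were tested, with 2 higher and 5 lower, against the same shares of all genes. *Lrp4*, a receptor that also binds sclerostin and agrin, had a log2 change of -2.30 (adjusted p = 1.64e-06 by limma). *Ror1*, a receptor for *Wnt5a*, had one of -1.44 (adjusted p = 2.23e-04).

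In the cytoplasm, 5 genes were higher and 10 lower of 20 tested, where 70.5% of all genes were called. *Apc2*, the neural relative of *Apc*, fell by 2.19 on the log2 scale and *Nkd1*, a feedback inhibitor that binds Dishevelled, by 1.73. All 14 nuclear partners were called, 6 higher and 8 lower, against 70.5% of all genes. The Groucho co-repressors ran in both directions: *Tle1* and *Tle4* rose by log2 changes of 1.18 and 1.27. *Tle2* and *Tle3* were called lower, by 0.97 and 0.54, which is less than 2-fold. The β-catenin co-activators *Bcl9*, *Bcl9l* and *Pygo1* had log2 changes of -1.17, -1.29 and -1.38, and *Chd8*, a chromatin remodeler that binds β-catenin, had -1.06. Less the median of its chromosome, each of these falls was under 2-fold, at -0.86, -0.65, -0.74 and -0.78 in this order. By the same subtraction *Tle1* and *Tle4* stood at 0.85 and 1.09. For *Bcl9l*, *Lrp4* and *Prickle1* the mean over probes gave smaller falls, of -0.65, -1.29 and -0.82.

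All 11 genes of planar cell polarity were tested, with 2 higher and 6 lower, where 70.5% of all genes were called. *Prickle1* fell by 2.24 on the log2 scale, whereas its paralog *Prickle2* was not above background in WT cells and at least 2.35-fold higher in IG27 cells, the group through which alone it passed the filter. *Celsr1*, an atypical cadherin, and *Intu*, a planar polarity effector at cilia, had log2 changes of -1.06 and -1.38.

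**Figure D4:**
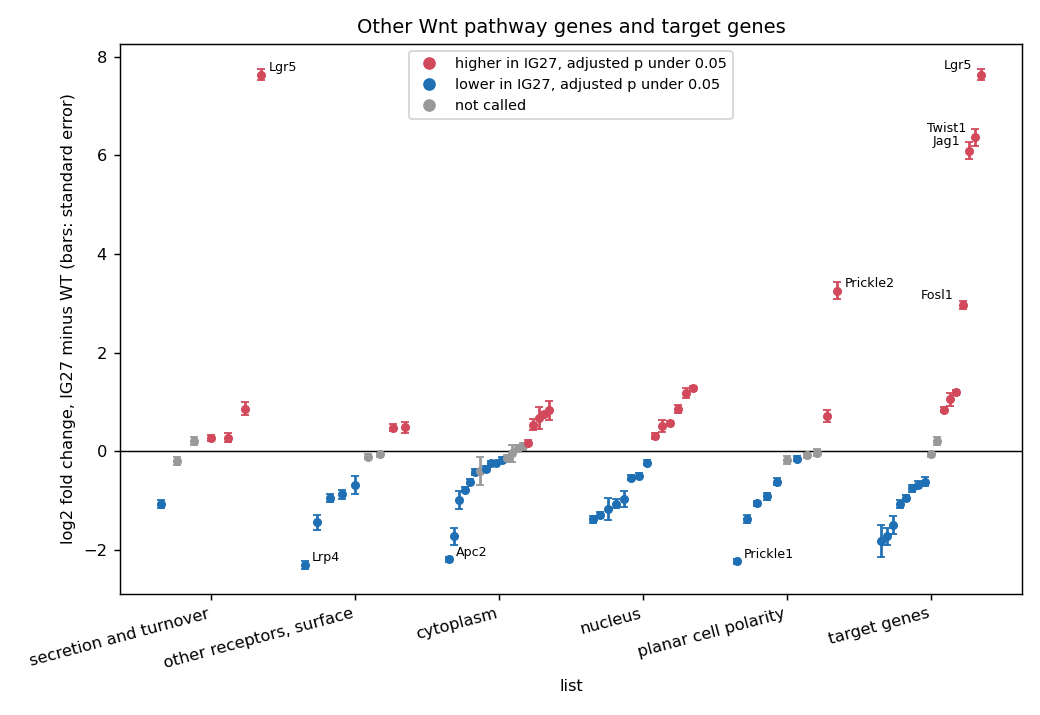
Log2 fold change (IG27 minus WT, vertical axis) of the tested other pathway genes by list and of the tested target genes, with standard errors as bars and 1 point a gene. *Lgr5* at 7.64, *Twist1* at 6.37, *Jag1* at 6.10 and *Prickle2* at 3.26 are fits to WT values below background, with bounds of at least 47.0-fold, 18.5-fold, 23.9-fold and 2.35-fold, and all but *Lrp4*, *Prickle1* and *Apc2* on the lower side stay above -2.

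Genes often used as readouts of β-catenin were on a list of 22, some of which also stand among the genes above. Of the 17 tested, 7 were higher and 8 lower in IG27 cells, with a median log2 change of -0.06, where 70.5% of all genes were called. At least a 2-fold fitted change was called for 6 that rose and 4 that fell, against 23.1% of all genes in either direction. *Lgr5*, *Twist1* and *Jag1* passed the filter through IG27 cells alone and *Cdx1* through WT cells alone. Of the 13 target genes that passed in both groups 4 were higher and 7 lower, with 3 and 3 at least 2-fold. For these 13 no matched share over all genes was counted. The 6 that rose at least 2-fold by the fit were *Lgr5*, *Twist1*, *Jag1*, *Fosl1*, *Myc* and *Tcf7*. *Twist1*, a mesenchymal transcription factor, and *Jag1*, a Notch ligand, were not above background in WT cells and at least 18.5-fold and 23.9-fold higher in IG27 cells. *Fosl1*, an AP-1 subunit, had a log2 change of 2.97 (adjusted p = 8.52e-07 by limma) and *Myc* one of 1.19 (adjusted p = 7.70e-06).

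The target genes whose fitted change was a fall of at least 2-fold were *Cdx1*, *Nkd1*, *Ccn4* and *Notum*, of which *Cdx1* has a smaller bound. *Ccn4*, a secreted matrix protein also called WISP1, had a log2 change of -1.49 (adjusted p = 3.99e-04 by limma). *Cdx1*, a homeobox gene, was at least 1.47-fold lower in IG27 cells, where it was not well above background. Of the feedback genes of the list, *Axin2*, *Nkd1*, *Notum* and *Tnfrsf19* were lower. *Znrf3* and *Apcdd1* did not pass the test (limma adjusted p = 0.0683 and 0.315). *Lgr5* was higher, but it passed the filter through IG27 cells alone and is given without a test. *Ccnd1*, the gene of cyclin D1, rose by 0.84 on the log2 scale, and *Cd44* and *Id2* fell by 0.75 and 0.95. *Sp5*, *Rnf43*, *Cdx2*, *Dkk1* and *Lef1* were not bright enough to test.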

How the data were processed

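RNA of 3 WT and 3 IG27 samples was read on Cy3 single-color Agilent SurePrint G3 mouse arrays of 1 slide. The deposited values are spot intensities on a linear scale, which the authors read with Feature Extraction (9.1 per the labels, 10.7.3.1 per the file headers). The array design gives mm9 as its build. The steps behind the processed signal are not given in the sources used here. The scanner output of IG27 replicate 2 ends after 285 of 62976 spots, so the deposited table of processed intensity was used for it. That table equaled the scanner output for 56305 of 56305 single-spot probes of every complete array (relative tolerance 1e-04). For IG27 replicate 2 itself, 255 of the 267 probes with a single spot in its incomplete output were equal. The table holds WT replicates 2 and 3 in each other's columns, and the scanner labels were used.

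Outlier spots were left out (107 to 210 per complete array), and values are log2 of the processed signal less the 75th percentile of the same array. Accessions were named with RefSeq of GRCm38.p6 (29339 of 29638 NM, 2407 of 2477 NR, 463 of 1222 XM and 785 of 2549 XR matched), which named 32994 probes for 22911 genes. The brightest probe stood for a gene. A gene was tested where its probe was flagged as above background on all complete arrays of 1 of the groups, with limma 3.58.1 (R 4.3.3, lmFit and eBayes, two-sided) and Benjamini-Hochberg adjustment, at 0.05. Where a group was not above background, the fold is a bound: the bright group's mean against the mean, over the dim group's complete arrays, of the higher of the lowest value well above background and the probe's own value. Per-array values were given for genes called with at least 2-fold change and for the co-receptors, the destruction complex, β-catenin and the TCF/LEF factors. Genes of the other lists were named where called with at least 2-fold change. Others were singled out after their values were seen. The genes and lists were chosen with earlier results of these data known. Of these steps, the limma fit and its adjustment were tested on simulated data.

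Alternatives were the complete arrays only, quantile normalization, normexp on median signals (mean signals, the usual input, were not used here), no filter and a stricter filter, outlier spots kept, the mean of probes, eBayes with trend, the replicate number or slide row as a block, an unadjusted p of at most 0.05 as in the methods, and each array left out. The normexp fit held the complete arrays only.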

Additional observations from a re-analysis of the deposited data

How the results depend on the processing

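Over 16 distinct alternative settings (complete arrays only is the fit without IG27 replicate 2), 21 of the 23 called Wnt genes stayed called wherever they could be tested and none changed sign. *Wnt6* and *Tcf7l1* lost their calls in 9 and 10 of them. The genes called higher numbered 8 to 11 and those called lower 13 to 15, and over all genes 8945 (slide row as a block) to 10854 were called. With each array left out in turn, the ranges were 8 to 10 higher, 13 to 15 lower and 9798 to 10162 over all genes. The well above background filter on every complete array cut the target genes called higher from 7 to 4, because probes dim in WT cells then go untested. Signs turned only for genes that did not pass the test. *Dkk3* gave 0.17 with complete arrays only, 0.12 with normexp, and -0.40 to 0.17 with arrays left out. *Wnt11* gave 0.010 with the mean of probes and -0.18 to 7.9e-04 with arrays left out, *Axin1* 0.092 with quantile normalization, and *Wnt1* -0.15 to 0.016 with arrays left out. Sizes moved most with normexp (offset 50), a setting that also used median signals and left out IG27 replicate 2. It gave 2.87 for *Fzd4*, -0.97 for *Frzb*, -0.68 for *Wnt10b*, -0.78 for *Fzd5*, 3.95 for *Lgr5*, 2.73 for *Jag1*, 2.53 for *Twist1*, 0.67 for *Prickle2* and -0.45 for *Cdx1*. For *Fzd5* the mean of probes gave -0.70. The cause was not tested. WT replicates 1 and 3 lay in 1 row of the slide and the other arrays in the next, so that block compares IG27 cells with WT replicate 2.

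Whether same-numbered samples were handled together is not given in the sources used here. Correlations of their deviations were 0.01, 0.04 and 0.08, against -0.09 to 0.06 for other pairs, which cannot settle it. With the replicate block, 10308 genes were called, with 9 Wnt genes higher and 13 lower, and *Apc* was called (adjusted p = 0.0137).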
